A study of Mus musculus with 6 samples.

Results

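The accessible chromatin was examined around 6 genes grouped as midbrain and hindbrain boundary genes, namely Wnt1, Gbx2, En1, En2, Lmx1a and Lmx1b. The cells were neural stem/progenitor cells (NSPCs) that keep or lack the Sox2 regulatory regions SRR2–18. A region, meaning an interval that the peak caller marked as accessible, was assigned to a gene if its strongest summit lay nearest to a protein-coding start of that gene in GENCODE M21 and at most 50 kb away. By this rule 30 of the 82885 parent regions and 27 of the 107480 deletion regions belonged to the 6 genes. After joining the regions that overlapped between the lists these made 41 loci, of 150251 in the whole series.

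The NSPCs came from mouse ESCs of the 129S1/Cast F1 Hybrid background and carried Sox2-mCherry on the 129S1 allele in both groups. The parent line, Clone 5B, had no deletion, and the ΔSRR2–18 line, Clone 47D, lacked SRR2–18 on both alleles. Each genotype was thus a single clone, grown in 3 cultures with EGF and bFGF in N2B27 medium. ATAC-seq, in which a transposase cuts and tags open DNA, was performed on 30000 cells per culture according to the labels, and the study's methods give a range that starts at this number. The authors merged the 3 cultures of a genotype into one list of regions, so the spread between cultures is unknown for every value below, and the genotypes were compared without a test.

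In the embryo the boundary, or isthmus, forms where OTX2-positive midbrain meets GBX2-positive hindbrain. It acts as an organizer: WNT1 is secreted on the midbrain side and FGF8 on the hindbrain side, and the homeodomain proteins EN1 and EN2 are made across both. LMX1B maintains Wnt1 and Fgf8 there, and LMX1A and LMX1B specify the roof plate and the dopaminergic neurons of the ventral midbrain. An accessible region near such a gene is not a measurement of its transcription.

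Summit windows of 201 bases, 100 on each side of the strongest summit, are given below for a selection of the regions. They were read from the plus strand of GRCm38 (mm10), and none contains an annotated UTR base. Capitals mark exact matches to motif letters on either strand, for SOX (ACAATG or ACAAAG), AP-1 (TGANTCA), OTX (TAATCC), Q50 homeodomain (TAATTA, the core read by EN, GBX and LMX type proteins), TCF/LEF (CTTTGAT or CTTTGAA) and HOX-PBX (TGATNNAT).
Wnt1 promoter summit (shared), chr15:98789613-98789813: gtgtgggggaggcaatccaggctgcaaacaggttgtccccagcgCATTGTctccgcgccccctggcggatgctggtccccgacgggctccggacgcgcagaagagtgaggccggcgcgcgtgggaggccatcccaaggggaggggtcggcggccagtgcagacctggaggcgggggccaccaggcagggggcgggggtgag
Wnt1 downstream summit (parent-only), chr15:98798073-98798273: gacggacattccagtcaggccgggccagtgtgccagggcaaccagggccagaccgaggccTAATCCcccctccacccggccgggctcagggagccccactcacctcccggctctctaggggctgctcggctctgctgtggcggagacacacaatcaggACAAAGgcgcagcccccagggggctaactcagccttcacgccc
Gbx2 upstream summit (shared, higher in the deletion list), chr1:89943304-89943504: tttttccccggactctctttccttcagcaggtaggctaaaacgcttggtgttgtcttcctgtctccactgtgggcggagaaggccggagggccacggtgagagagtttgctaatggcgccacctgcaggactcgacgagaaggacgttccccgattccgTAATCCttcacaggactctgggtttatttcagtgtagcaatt
En1 promoter summit (shared, lower in the deletion list), chr1:120602163-120602363: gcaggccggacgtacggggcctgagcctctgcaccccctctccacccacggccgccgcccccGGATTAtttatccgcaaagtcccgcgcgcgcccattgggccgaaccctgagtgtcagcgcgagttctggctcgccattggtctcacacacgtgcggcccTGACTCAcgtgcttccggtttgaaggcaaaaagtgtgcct
En2 far upstream summit (shared), chr5:28123140-28123340: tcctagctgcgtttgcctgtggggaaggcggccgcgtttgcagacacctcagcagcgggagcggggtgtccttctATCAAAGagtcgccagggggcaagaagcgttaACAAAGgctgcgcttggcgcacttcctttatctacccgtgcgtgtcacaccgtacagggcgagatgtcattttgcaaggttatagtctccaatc
En2 upstream summit (parent-only), chr5:28136436-28136636: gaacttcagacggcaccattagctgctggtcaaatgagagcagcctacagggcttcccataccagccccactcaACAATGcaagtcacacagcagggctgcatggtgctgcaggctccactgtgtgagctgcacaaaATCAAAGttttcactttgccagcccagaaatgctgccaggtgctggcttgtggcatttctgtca
Lmx1a far upstream summit (deletion-only), chr1:167660886-167661086: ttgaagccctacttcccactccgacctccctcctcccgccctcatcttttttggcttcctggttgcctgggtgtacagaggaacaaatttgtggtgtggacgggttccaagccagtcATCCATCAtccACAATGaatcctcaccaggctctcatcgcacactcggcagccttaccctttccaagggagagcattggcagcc
Lmx1a upstream summit (deletion-only), chr1:167672614-167672814: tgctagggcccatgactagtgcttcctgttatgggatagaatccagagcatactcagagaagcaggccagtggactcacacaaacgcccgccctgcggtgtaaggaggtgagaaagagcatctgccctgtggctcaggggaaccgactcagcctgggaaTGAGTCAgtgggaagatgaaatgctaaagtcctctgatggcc
Lmx1b intron summit (parent-only), chr2:33593076-33593276: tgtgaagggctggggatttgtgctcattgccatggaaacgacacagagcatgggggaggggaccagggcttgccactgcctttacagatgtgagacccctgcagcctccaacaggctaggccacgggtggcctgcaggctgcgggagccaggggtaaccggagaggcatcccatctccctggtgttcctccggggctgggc
Lmx1b intron summit (deletion-only), chr2:33605196-33605396: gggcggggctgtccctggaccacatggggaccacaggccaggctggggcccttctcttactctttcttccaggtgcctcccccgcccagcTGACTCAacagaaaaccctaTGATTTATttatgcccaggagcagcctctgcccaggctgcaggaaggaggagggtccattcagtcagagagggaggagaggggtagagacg
Lmx1b intron summit (shared), chr2:33616466-33616666: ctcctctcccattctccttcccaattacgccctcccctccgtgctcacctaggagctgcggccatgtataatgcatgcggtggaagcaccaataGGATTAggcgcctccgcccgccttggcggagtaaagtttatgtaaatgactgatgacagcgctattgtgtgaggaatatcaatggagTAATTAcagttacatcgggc

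The Wnt1 promoter window holds a SOX match, and the window downstream of Wnt1 holds an OTX and a SOX match. Both En2 windows pair a SOX match with a TCF/LEF match, although one lies in a region of both lists and the other in a parent-only region. The deletion-only En2 region at −7200 bp, not printed above, also holds a SOX and a TCF/LEF match. At Lmx1a the farther window carries adjacent HOX-PBX and SOX matches and the nearer one an AP-1 match. Of the Lmx1b windows, the parent-only one has no match and the deletion-only one has an AP-1 and a HOX-PBX match. The shared one has an OTX and a Q50 homeodomain match. Windows at the strongest promoter-region summits of En2 (−88 and 1169 bp), Gbx2 (949 and −93 bp) and Lmx1b (−349 and 891 bp) are not printed. Those windows hold no match, so the printed ones do not stand for all regions described below.

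The reads under a summit and the background around it were solved from the fold enrichment and p-value of the peak caller. Height is given below as summit reads divided by the lowest local background of the list, which stands for the genome-wide mean, and it is therefore a level in multiples of that mean. This floor was 38.8 reads for the parent and 19.7 for the deletion, so the parent list was 1.98 times deeper, while the labels give one range of sequencing depth for all libraries. Distances are from the gene's start to the summit, with upstream negative. For regions found in both lists, the log2 of deletion over parent height was centred on the median of all 39500 such pairs, where the deletion height was 0.851 times the parent height, and 2-fold from that median was taken as the call.

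The 6 genes divided into those whose regions were mostly kept, those that had more parent-only regions and those that had more deletion-only regions. Over all 6 genes, 14 parent regions had no overlapping deletion region, 11 deletion regions had no overlapping parent region, and 16 pairs overlapped. The parent-only share was 46.7% of the 30 parent regions, beside 52.3% of all parent regions. For the deletion list the share was 40.7% of 27, beside 63.1% of all deletion regions. Neither share exceeded that of its whole list.

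**Figure D1:**
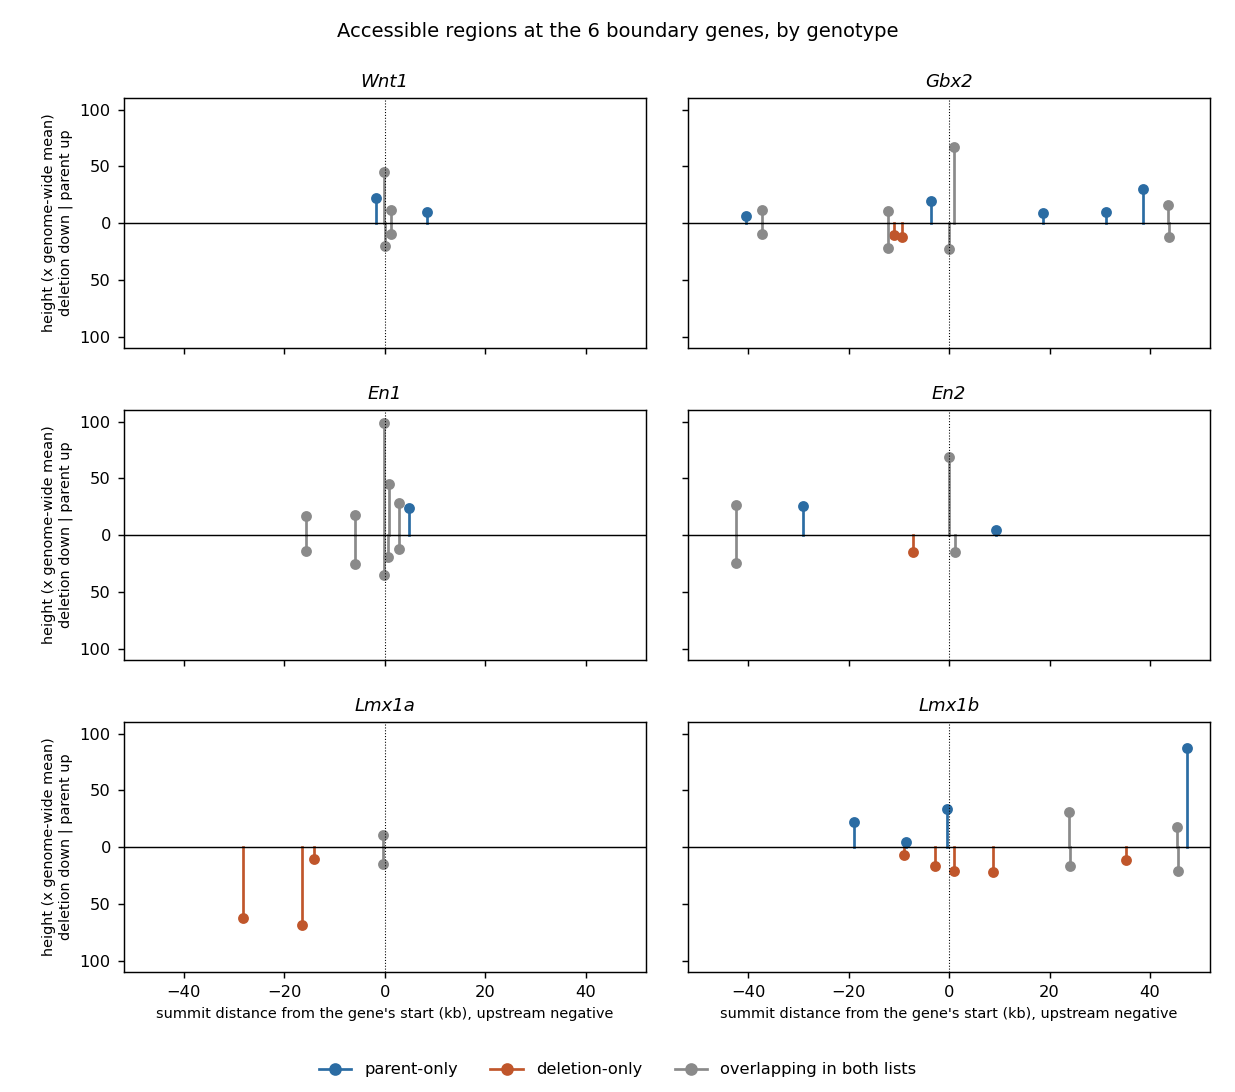
Height of every region at the 6 genes in multiples of the genome-wide mean (y axis, parent upward and deletion downward) against the distance of its strongest summit from the gene's start in kb (x axis). Grey marks the 16 pairs that overlap between the lists, blue the 14 parent-only and orange the 11 deletion-only regions, and the tallest specific regions are at Lmx1b (87.7, parent-only) and Lmx1a (68.8 and 62.1, deletion-only).

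Wnt1, the secreted signal of the midbrain side (chr15:98789857-98793837, plus strand), had 4 parent and 2 deletion regions. Its promoter region was present in both lists, with a summit of 44.8 times the mean at −144 bp in the parent list and of 20.4 at 74 bp, in the 5′ UTR, in the deletion list. The deletion list also placed a summit at −169 bp, 25 bp from the parent summit, with a height of 18.4. Relative to the median of all pairs the promoter was lower by 0.90 on the log2 scale, which is within the 2-fold limit. A second region in the coding sequence near 1158 bp was alike in both lists, with heights of 11.6 and 9.61 and a centred log2 ratio of −0.03. The other 2 parent regions were parent-only. One, at −1733 bp, had a height of 22.3 and the other, at 8316 bp downstream, had a height of 9.35 and a fold enrichment in the top 68.9% of its list. Both lay close to deletion regions, with gaps of 804 and 732 bp. Wnt10b, another WNT gene, starts 11.7 kb from Wnt1, and 8 parent and 11 deletion regions within 50 kb of Wnt1 lay nearer to other genes and were not counted here.

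Gbx2, which encodes the homeodomain factor of the hindbrain side (chr1:89927956-89931179, minus strand), had 9 parent and 6 deletion regions, with 5 parent-only and 2 deletion-only. No other member had as many parent-only regions, and 7.18% of the 17645 genes with a region had as many or more. These 5 of its 9 parent regions are, however, near the parent-only share of 52.3% among all parent regions. Such a count also depends on the space around a gene, and the nearest other start was 83.4 kb from Gbx2. The promoter region of 1498 bp in the parent list and 1674 bp in the deletion list differed in shape. In the parent list its summits in the intron, at 705 and 949 bp, had heights of 53.4 and 67.0, and the summit just upstream of the start, at −68 bp, had a height of 6.98. In the deletion list the matching intron summits had heights of 13.1 and 17.4, whereas the upstream summit, at −93 bp in an exon of the noncoding gene D130058E05Rik, had a height of 22.9. The intron summits were thus 4.07 and 3.84 times higher in the parent list, and the upstream summit was 3.29 times higher in the deletion list. Fold enrichment at the intron summits was also lower in the deletion list, 9.86 and 4.63 at 705 bp (centred log2 ratio −1.05) and 12.4 and 6.18 at 949 bp (−0.96). At the parent upstream summit the fold enrichment was only 1.29, so it stood little above its local background.

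Among the other shared Gbx2 regions, the one at −12225 bp was 10.6 times the mean in the parent list and 21.7 in the deletion list, a centred log2 ratio of 1.27. It was the single shared pair of the 6 genes past 2-fold in that direction. The local background was also higher, 1.99 against 1.00 times the mean, and the fold enrichments of 10.3 and 10.7 were alike. Close by, the deletion list had 2 further regions, at −9418 bp (height 12.5) and −10975 bp (height 10.2), that the parent list lacked. The shared regions at −37259 bp and 43662 bp had centred log2 ratios of −0.06 and −0.16. The 5 parent-only regions were spread more widely, at −40334, −3635, 18602, 31233 and 38692 bp. The last of these, in a UTR of the neighbouring gene Agap1, was the tallest, at 30.3 times the mean. Those at 18602 and 31233 bp had heights of 8.80 and 10.0, and both held a HOX-PBX match.

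En1, which encodes the Engrailed homeodomain repressor made on both sides of the isthmus (chr1:120602418-120607992, plus strand), had 6 parent regions, and 5 of them overlapped the 5 deletion regions. No deletion-only region was assigned to it. The promoter summit at −155 bp was the tallest of all 57 regions, at 98.8 times the mean in the parent list. There it ranked in the top 8.23% by reads but only in the top 51.1% by fold enrichment. In the deletion list the summit 16 bp away had a height of 34.9, giving a centred log2 ratio of −1.27. It ranked in the top 25.7% by reads and the top 69.8% by fold enrichment. Lower heights extended into the gene. The region in the coding sequence was 44.7 in the parent and 19.4 in the deletion list (−0.97), and the intron region at 2845 bp was 28.7 and 12.1 (−1.02). Upstream the values differed: the region at −5831 bp was 17.6 in the parent and 25.5 in the deletion list (0.76), and that at −15737 bp was 17.2 and 14.1 (−0.05). The only parent-only region, at 4771 bp in the 3′ part of the gene annotated as UTR, overlapped a region of the deletion genotype's longer, less strict list.

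The local background, an average over the DNA surrounding a summit, moved with the heights at En1. Around the promoter it was 10.3 times the genome-wide mean in the parent list and 4.61 in the deletion list. Around the coding and intron summits it was 10.6 and 10.7 in the parent and 4.49 and 4.37 in the deletion list. Heights and local background come from the same pooled reads, so they are not independent. Measured as fold enrichment over that local background, the centred log2 ratio of the promoter was −0.36, that of the coding region 0.02 and that of the intron region 0.03. The strongest summits of the coding region lay, however, 189 bp apart. At its matched summit at 828 bp the heights were 44.7 and 13.5, with centred log2 ratios of −1.39 by height and −0.46 by fold enrichment. At that at 1455 bp the heights were 24.3 and 17.1, with ratios of −0.16 and 0.79.

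En2, the second Engrailed gene (chr5:28165694-28172166, plus strand), showed the lowest deletion-to-parent ratio of the 16 pairs. Its promoter region, 2191 bp wide in the parent and 2078 bp in the deletion list, reached from upstream of the start into the coding sequence. The strongest summits were 68.9 at −88 bp in the parent list and 14.9 at 1169 bp in the deletion list, a centred log2 ratio of −1.98. Compared at the same places, the summit at −88 bp was 68.9 and 9.87, that at 504 bp was 21.6 and 6.15, that at 689 bp was 33.0 and 10.2, that at 1166 bp was 64.7 and 14.9, and that at 1416 bp was 34.0 and 11.9. All 5 matched summits were lower in the deletion list, and the one next to the start differed most, by 6.98 times. These 5 summits lie in one region and are not independent. The local background was 8.66 times the mean in the parent list and 2.59 in the deletion list, and by fold enrichment the ratio of the strongest summits, which lie in different places, was −0.49. At the same place, the summit at −88 bp had a fold enrichment of 7.94 in the parent and 3.79 in the deletion list, a centred log2 ratio of −1.03. At the other 4 matched summits this ratio ran from −0.35 to 0.27, so next to the start the difference exceeded that of the local background, and further into the gene it went with it.

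Far from the promoter, En2 had a shared region at −42454 bp that was alike in both lists, with heights of 26.3 and 24.2 and fold enrichments of 23.4 and 23.0. The fold enrichment ranked in the top 3.45% of the parent and the top 5.75% of the deletion list. By reads the ranks were the top 37.4% and 38.2%. The parent-only region at −29158 bp had nearly the same height in its list, 25.8, and no deletion region within 12.7 kb. A weak parent-only region lay at 9353 bp (height 4.27), and the deletion-only region at −7200 bp had a height of 15.3. The neighbouring gene Cnpy1, which encodes a protein known from zebrafish as a regulator of FGF signalling at the isthmus, starts 44.3 kb from En2. All 5 regions assigned to Cnpy1, 3 of them at its promoter, were parent-only, and the deletion list had none. Thus 3 parent-only regions within 50 kb of En2 lay nearer to Cnpy1 and were not among those counted for En2.

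Lmx1a, which encodes a LIM-homeodomain factor of roof plate and midbrain floor plate (chr1:167689237-167848741, plus strand), was the gene with the largest excess of deletion-only over parent-only regions among the 6. It had a single parent region, at the promoter, and 4 deletion regions. The regions at −28251 and −16523 bp had heights of 62.1 and 68.8. They ranked in the top 11.1% and 9.06% of the deletion list by reads and the top 21.8% and 9.89% by fold enrichment. Their heights exceeded that of the Lmx1a promoter itself, which was 10.6 in the parent and 14.9 in the deletion list. A weaker deletion-only region lay at −14167 bp with a height of 10.4. The nearest parent region was 14.8, 15.1 and 13.1 kb away from the 3 regions. That at −28251 bp did, however, overlap a region of the less strict parent list. Across the genes with a region, 27.9% had as many deletion-only regions as Lmx1a or more, so their number is not particular to it.

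The Lmx1a promoter depended on the scale. Its height had a centred log2 ratio of 0.73, higher in the deletion list, but its local background was 1.00 in the parent and 2.39 in the deletion list, and by fold enrichment the ratio was −0.76. Both matched summits, at −658 and −294 bp, were higher in the deletion list, from 6.90 to 11.7 and from 10.6 to 14.9.

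Lmx1b, the LIM-homeodomain gene that is needed to maintain the isthmic signals (chr2:33560965-33640511, minus strand), had the most exchanged set of regions. Of 6 parent and 7 deletion regions only 2 overlapped, leaving 4 parent-only and 5 deletion-only. As many parent-only regions or more were found at 11.3% of genes, and as many deletion-only regions or more at 11.8%. The specific regions were 4 of 6 and 5 of 7, beside 52.3% of all parent and 63.1% of all deletion regions. These counts also depend on the space around a gene, and the nearest other start was 172 kb from Lmx1b. It was the only one of the 6 genes whose parent promoter region had no overlapping deletion region. In the parent list that region spanned chr2:33640358-33641372 and covered the start. Its summits lay upstream, at −554 and −349 bp, with heights of 26.5 and 33.4 times the mean. In the deletion list the nearest region began 365 bp away, inside the gene, with its strongest summit in the coding sequence at 891 bp and a height of 21.3. A further deletion-only region lay at −2744 bp, in an exon of the noncoding gene C130021I20Rik, with a height of 17.1. The parent interval thus covered the start, whereas the deletion intervals lay on either side of it.

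Within the long Lmx1b gene, the parent-only intron region at 47335 bp was the tallest specific region of the 6 genes, at 87.7 times the mean. It ranked in the top 10.4% by reads and the top 20.1% by fold enrichment. The parent-only region at −18914 bp was lower, at 22.1 and in the top 42.6% by reads. Its fold enrichment of 21.6 was in the top 6.31%. The remaining parent-only region, at −8600 bp, was weak (height 4.61), and only 40 bp separated it from the deletion-only region at −9056 bp (height 7.02), so these calls lie side by side. Deletion-only intron regions lay at 8683 and 35215 bp, with heights of 22.0 and 11.0. The shared intron regions were 31.2 and 16.7 at 23945 bp (−0.67) and 17.6 and 20.7 near 45303 bp (0.47). For the latter the local background was 5.16 in the parent and 1.55 in the deletion list, and the fold enrichment of 3.39 became 12.9, the single pair past 2-fold by that measure.

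**Figure D2:**
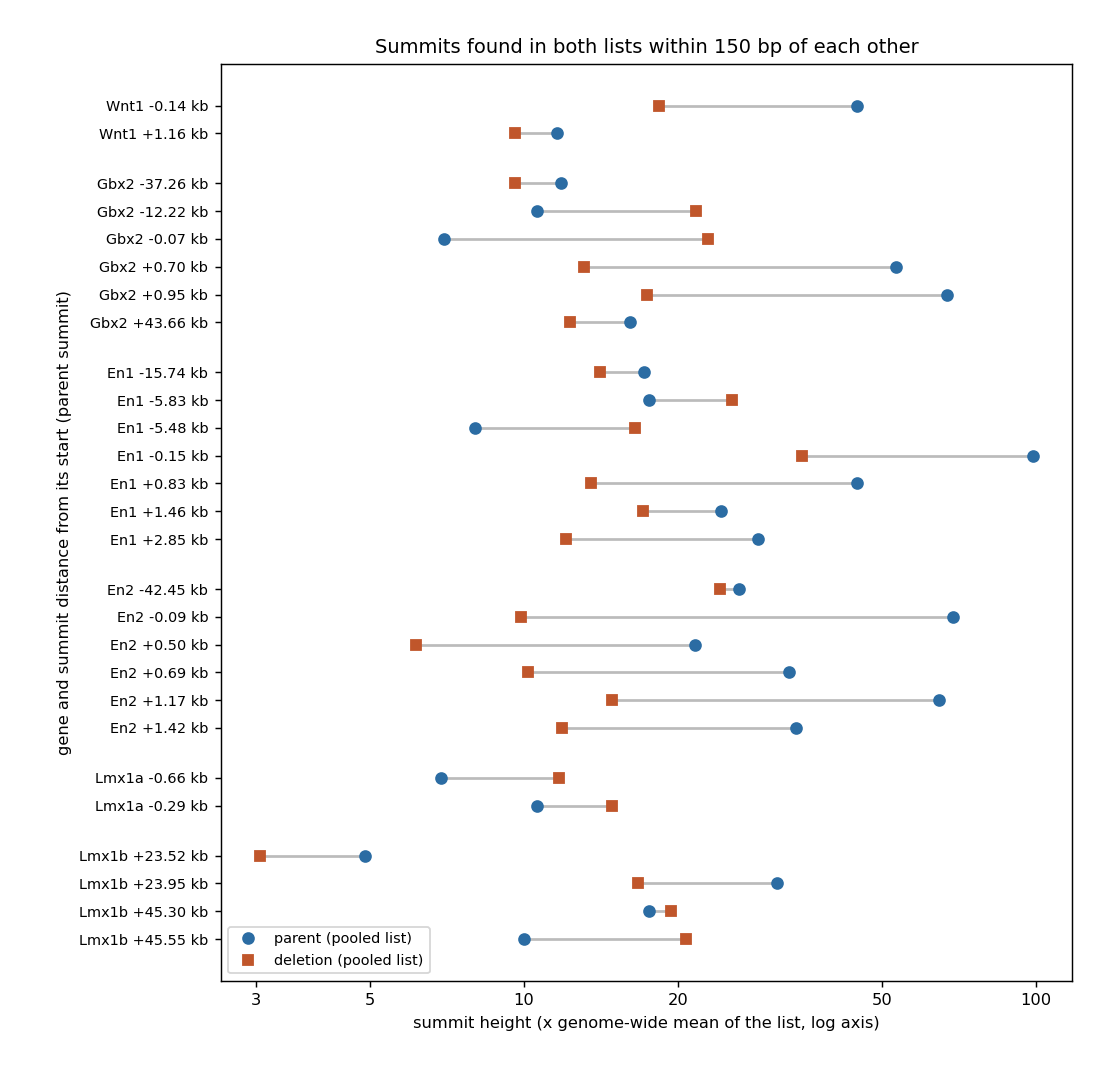
Heights (x axis, log scale, multiples of the genome-wide mean) of the 27 summits at the 6 genes that were found in both lists within 150 bp, with parent as circles and deletion as squares, one row per summit ordered by gene and distance. The promoter summits of Wnt1, En1 and En2 and the intron summits of Gbx2 lie to the left in the deletion list, and those of Lmx1a and the Gbx2 summit next to the start lie to the right.

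Taking the 16 overlapping pairs together, 4 (25.0%) were past 2-fold lower in the deletion list, beside 11.4% of all pairs, and 1 (6.25%) was past 2-fold higher, beside 19.5%. The median centred log2 ratio of the 16 pairs was −0.11 and the range was −1.98 to 1.27. The 4 lower pairs were the promoter regions of En2, Gbx2 and En1 and the En1 intron region. By fold enrichment of the strongest summits none of the 16 was past 2-fold lower and 1 was past 2-fold higher. No share over all pairs was computed for this measure, so these counts cannot be set beside one. The strongest summits of the En2 and Gbx2 promoter pairs were, moreover, 1257 and 1042 bp apart. Those of the Lmx1b pair near 45303 bp, the Wnt1 promoter and the En1 coding region were 279, 218 and 189 bp apart. The median ratio of local background was 0.649 over the 16 pairs and 0.902 over all pairs. Whether broad accessibility or the number of reads from these genes as a whole differed between the cultures was not tested.

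Since the strongest summit of a region can differ between lists, every summit was also matched to the nearest summit of the other list within 150 bp. Centred ratios of matched summits, here and for single genes above, are relative to the median of all 59994 matched summits. At that median the deletion height was 0.789 times the parent height. The En1 summit at 2845 bp, past 2-fold lower as a pair (−1.02), was therefore within the limit here (−0.91). Of 27 matched summits at the 6 genes, 9 (33.3%) were past 2-fold lower, beside 9.95% of all 59994 matched summits, and 5 (18.5%) were past 2-fold higher, beside 16.8%. All 9 lower summits lay between −155 and 1416 bp from the start of En1, En2 or Gbx2, and 5 of them belong to the one En2 region. The 5 higher summits were at En1 (−5481 bp), Gbx2 (−12225 and −68 bp), Lmx1a (−658 bp) and Lmx1b (45552 bp). By fold enrichment 2 of the 27 (7.41%) were past 2-fold lower, beside 7.21% of all matched summits, namely En2 at −88 bp and Gbx2 at 705 bp. In the other direction 3 (11.1%) were past 2-fold higher, beside 9.36%, namely Gbx2 at −68 bp and both Lmx1b summits near 45303 bp. The share of lower summits was thus above that of all summits by height and near it by fold enrichment.

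**Figure D3:**
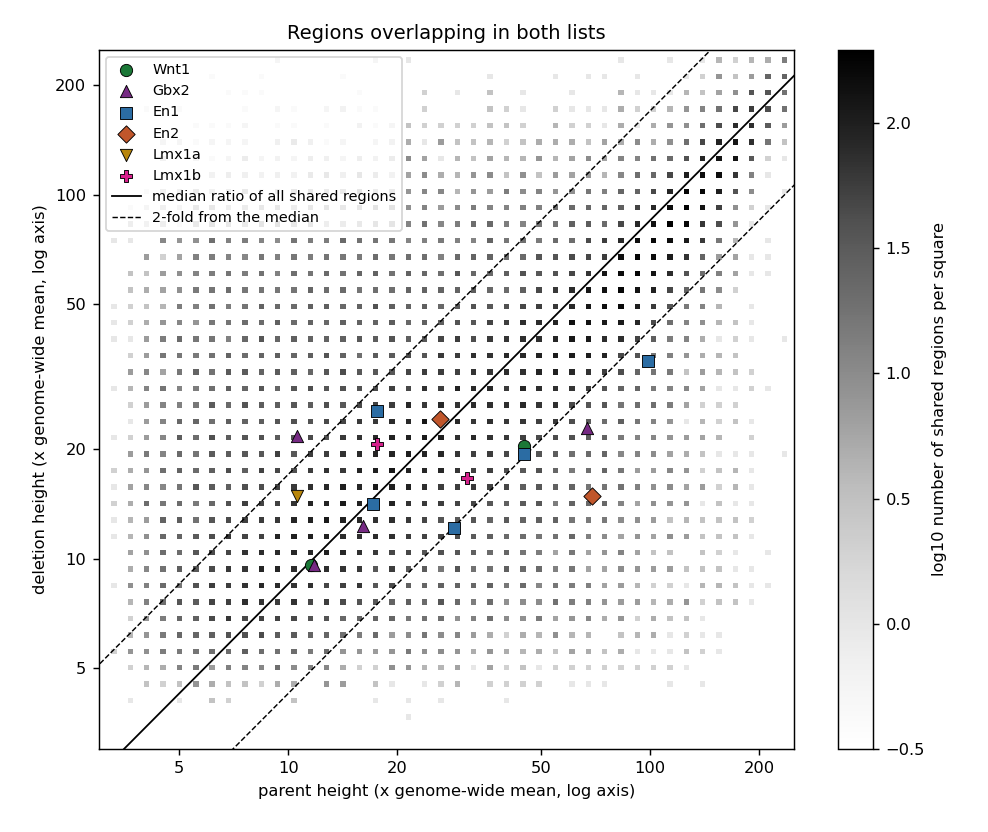
Deletion height against parent height (both log axes, multiples of the genome-wide mean) for all 39500 overlapping pairs, as grey squares shaded by their number, with the 16 pairs at the 6 genes as coloured symbols. The solid line is the median ratio of 0.851 and the dashed lines are 2-fold from it: 4 symbols lie below the lower line and 1 above the upper line.

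At promoters, defined as summits within 1 kb of a start, the parent list had 7 regions at the 6 genes and the deletion list 6. One of the 7 parent regions (14.3%), that of Lmx1b, had no overlapping deletion region, beside 8.91% of all parent promoter regions. In 5 pairs both strongest summits were within 1 kb, and 2 of these (40.0%), at En1 and Gbx2, were past 2-fold lower, beside 7.12% of such pairs in general. The En2 pair is not among the 5 because its strongest deletion summit was at 1169 bp. The median centred log2 ratio of all 12498 shared promoter pairs was −0.23, so promoters in general sat slightly below other shared regions in the deletion list. Against that median 3 of the 16 pairs at the 6 genes, distal ones included, were past 2-fold lower. No share over all pairs was computed for this centring.

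The regions at the boundary genes were richer in G and C than regions in general. The median GC content of the summit windows was 54.7% for the 14 parent-only regions, beside 50.2% for all parent-only regions, 64.7% beside 54.7% for shared regions at their parent summits, and 60.7% beside 45.8% for deletion-only regions. A region of the other list lay within 1 kb of 4 of the 14 parent-only regions and of 3 among the 11 deletion-only ones, beside 14.1% and 9.73% of all such regions.

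Motif matches were counted within 100 bp of the strongest summit. AP-1 is the JUN and FOS dimer whose motif was present in 50.7% of all deletion-only regions. At the 6 genes it was present in 4 of 11 deletion-only regions (36.4%, 95% Wilson interval 15.2 to 64.6). All 4 were at Lmx1a or Lmx1b, which held 3 and 5 of the 11 deletion-only regions. The AP-1 motif was in none of the 14 parent-only regions (upper limit of the interval 21.5%), where the share in general was 4.59%. A SOX match was found in 4 of 14 parent-only regions (28.6%, 11.7 to 54.6), beside 38.3% of all parent-only regions, and in 3 of 11 deletion-only regions (27.3%), beside 25.9%. OTX matches, the letters bound by the midbrain factor OTX2, occurred in 3 of the 16 shared regions at parent summits (18.8%, 6.59 to 43.0), namely at the En1 promoter, the Gbx2 region at −12225 bp and the Lmx1b region at 23945 bp. In all shared regions the share was 3.68%, which lies below that interval, whereas windows 500 bp away held the match in 7.41%, a share within it. HOX-PBX matches were in 3 of 11 deletion-only regions (27.3%, 9.75 to 56.6), beside 17.5%, and in 2 of 14 parent-only regions (14.3%), beside 6.39%. The HOX-PBX and AP-1 letters can share bases, as they do in the deletion summit of the Lmx1b region at 45582 bp. The intervals cover counting error only, and a match is a run of letters, not a bound site.

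**Figure D4:**
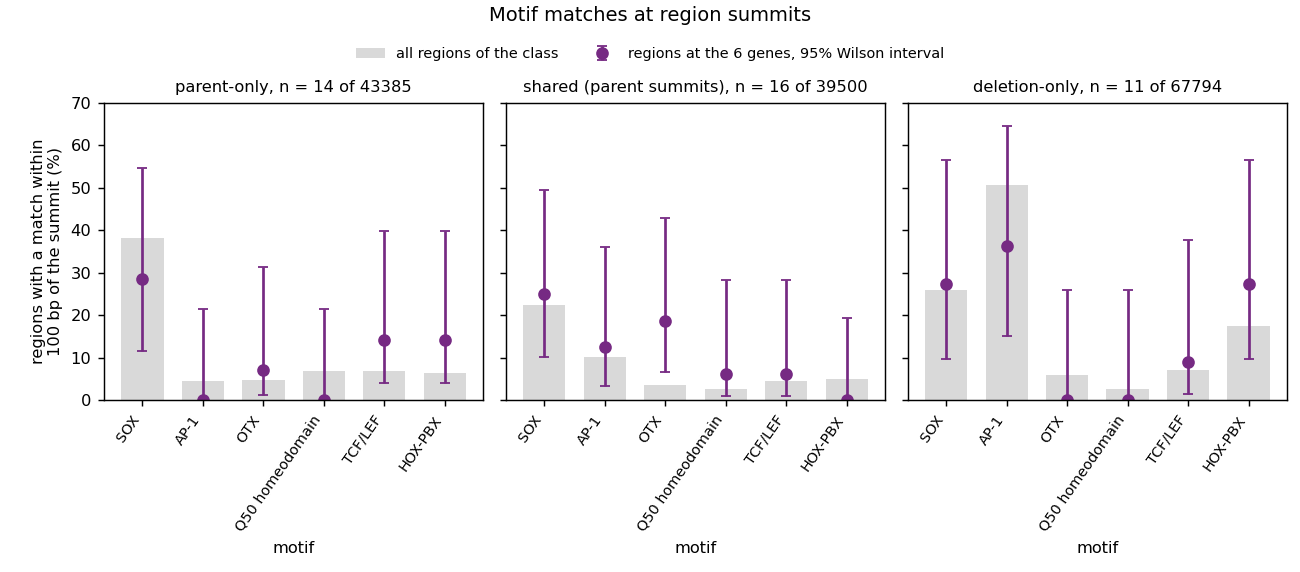
Share of regions with a motif match within 100 bp of the summit (y axis, percent) for 6 motifs (x axis) in parent-only, shared and deletion-only regions. Purple points with 95% Wilson intervals are the regions at the 6 genes (14, 16 and 11), grey bars are all regions of the class, and only the OTX interval in shared regions (6.59 to 43.0) lies wholly above its bar (3.68).

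Other genes of the boundary network were listed in 4 groups with results of these data known. Isthmic signals and their feedback regulators (8 genes) had 23 parent-only and 25 deletion-only regions. Cnpy1, with 5 and 0, and Dusp6, a phosphatase induced by FGF signalling, with 2 and 8, were at the ends. The specific shares were 47.9% of the 48 parent and 50.0% of the 50 deletion regions of this list. Boundary and midbrain transcription factors (7 genes) had 12 regions in the parent-only class and 24 in the deletion-only class, or 38.7% and 54.5%. Here Otx2 had 5 and 2, whereas Pax2 had 0 and 5 and the zinc finger gene Sp8 had 1 and 6. The dopaminergic list (8 genes) had 6 and 22, or 26.1% and 59.5%, with 8 deletion-only regions at Ddc, the gene of dopa decarboxylase, and 4 at the homeobox gene Msx1. Rhombomere factors (5 genes) had 8 and 16, or 44.4% and 64.0%, with 3 parent-only regions and none in the deletion list at Hoxa2 and 5 deletion-only regions at Hoxb1. Beside 63.1% of all deletion regions, the deletion-only share of each list was near or below that of the whole list, so the larger deletion-only counts are not particular to these genes. The parent-only shares were all below the 52.3% of the whole parent list.

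Promoters of these related genes were compared in 19 overlapping pairs from 17 genes, with a median centred log2 ratio of −0.21. Otx1, the second OTX gene, was 127 in the parent and 28.0 in the deletion list (−1.94), the forkhead gene Foxa1 was 75.5 and 18.9 (−1.77), and Fgf8, the hindbrain-side signal, was 49.2 and 13.1 (−1.68). These were the 3 of 19 pairs past 2-fold lower, beside 7.12% of all shared promoter pairs. Msx1, which acts downstream of Lmx1a in the ventral midbrain, was 14.9 and 53.5 (2.08), and the floor plate gene Foxa2 was 6.18 and 11.4 (1.12). These were the 2 of 19 pairs past 2-fold higher, beside 5.61%. All these calls rest on the heights of the strongest summits, and fold enrichment was not compared. For Fgf8 these summits lay at −216 bp in the parent and 33 bp in the deletion list. For Foxa2 they lay at −220 and −424 bp, so both ratios compare different places.

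All 8 NSPC marker genes examined had a promoter region in both lists, as did 1 of 4 pluripotency genes, with Pou5f1, Nanog and Zfp42 without one. Promoter regions were present for 3 of 4 neuronal genes in the parent and 4 of 4 in the deletion list, for 1 of 3 astrocyte and 1 of 3 oligodendrocyte genes in both, and for none of the microglial or endothelial genes. In a bulk sample, a change of accessibility in each cell and a change in the share of cells that carry it cannot be told apart.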

How the data were processed

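Per the labels and the study's methods, ATAC-seq was done on 3 cultures of each genotype, and the authors ran the ENCODE pipeline for this assay, with peaks called by MACS2 on mm10 and cultures combined by IDR. The study retained the conservative IDR lists. Aligner settings and read filters of the pipeline are not given in the sources used here. The deposited lists, 2 per genotype, hold for each summit an IDR score, a fold enrichment (ratio over local background), a −log10 p-value and a −log10 q-value (not used), all of pooled reads. The lists hold no value per culture, so the comparisons made here from them have no test and no replicate error. The authors' own test over the cultures was not used here. One allele is of the Cast strain, whose reads can map less often to mm10.

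The conservative lists were used, with one region per distinct interval. Reads and local background were solved from fold enrichment and p-value under the Poisson model of the peak caller (whole within 0.05 reads for 99.9993% of parent and 100.000% of deletion summits). Overlap needed 1 bp. Regions described one by one were those within 1 kb of a start and the strongest of each class per gene by fold enrichment. All other regions, the printed sequences and the summit matching were chosen after values were seen. The members and gene lists were chosen with earlier results of these data known. Alternatives were the optimal lists, stricter IDR, 50% reciprocal overlap, equal list length or depth, other distances, other height measures and centring, and other motif windows. Functions were tested on simulated data. Python 3.11.15, numpy 2.4.6, pandas 2.3.3, scipy 1.17.1, pysam 0.24.0 and matplotlib 3.10.9 were used.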

Additional observations from a re-analysis of the deposited data

How the results depend on the processing

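No paired analysis was possible because the deposited lists pool the cultures of a genotype and carry no column per culture, and for the same reason no culture could be left out. Parent-only, deletion-only and shared counts (14, 11 and 16) stayed within 1.5 times under the optimal lists, the stricter IDR score, 50% reciprocal overlap, equal depth, any region within 50 kb and, for the specific counts, absence from both lists of the other genotype. With equal list lengths there were 19 parent-only, 6 deletion-only and 11 shared regions. The excess of parent-only over deletion-only regions, 3 in the main counts, was thus 13. It was 7 in the optimal lists, 12 within 100 kb and from 1 to 3 under the other settings for which it was computed. Shares over all regions were not computed for these settings. Within 10 kb the counts were 7, 6 and 9, and within 100 kb 32 parent-only and 20 deletion-only regions. Parent promoter regions without an overlap were 2 at a promoter distance of 2.5 kb.

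The heights depended on the scale. Past 2-fold lower there were 4 pairs, but 0 by fold enrichment, 2 of the 11 pairs whose strongest summits were within 150 bp, and, of the 27 matched summits, 9 by height and 2 by fold enrichment (both added after seeing the data). Past 2-fold higher there was 1 pair, and there were 2 by −log10 p over depth and 2 in the optimal lists. Of the matched summits, 5 were past 2-fold higher by height and 3 by fold enrichment. For the alternative pair counts no share over all pairs was computed. The En1 intron region at 2845 bp reversed by fold enrichment, to 0.03, where its local background moved with it. With a window of 250 bp the SOX share was 57.1% instead of 28.6% in parent-only regions and 54.5% instead of 27.3% in deletion-only regions, beside 62.5% and 54.2% of all such regions. The OTX share of shared regions, 18.8%, was 37.5% at 250 bp and 12.5% at 50 bp, beside 11.4% and 1.60% of all shared regions. A region of a given height rests on fewer reads in the deletion list, whose genome-wide mean is 19.7 reads against 38.8.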
